A study of Mus musculus with 6 samples.

Results

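Solute carriers are membrane proteins that move nutrients, ions and metabolites across the plasma membrane or the membranes of organelles. The 261 probes whose annotated symbol begins with Slc followed by a digit were taken as the members. They belong to 244 of the 15063 named genes of the array, which holds 21766 probes. By what their families are known to carry, 27 of the genes were placed among amino acid transporters, 16 among glucose and sugar transporters, 14 among neurotransmitter transporters, 36 among mitochondrial carriers and 145 among other carriers. The other 6 are named after a carrier without being one, such as Slc9a3r1, an adaptor protein of sodium proton exchangers. The grouping was made by symbol, and Slc6a20b, a proline carrier, fell among the other carriers and not the amino acid transporters.

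The samples were single cortices of E12.5 mouse embryos, an age given as the embryonic day. Each of 6 mutant cortices was hybridised on a two-colour array against 1 of 3 wild-type cortices, so that each wild type served 2 arrays. The mutants carried, on the paternal copy, a Mest (Peg1) allele targeted with LacZ and lacking exons 3 to 8. Mest is imprinted and transcribed from the paternal copy, so these embryos are heterozygous in sequence and lack the active copy in every tissue. The maternal copy of the mutants and both copies of the wild types are intact, and no other allele or treatment is named. Mutants 3, 5 and 6 were labelled with Cy5 and mutants 1, 4 and 7 with Cy3. The wild type was number 2 for mutants 3 and 1 (labelled 1 on the array of mutant 3), number 8 for mutants 5 and 4, and number 9 for mutants 6 and 7. The labels give neither litters nor sexes, so p-values measure the spread between these cortices.

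Cells of the embryonic cortex import glucose through facilitative transporters of the Slc2 family and amino acids through exchangers and sodium-coupled transporters of the Slc1, Slc3, Slc6, Slc7 and Slc38 families. Amino acid carriers of the Slc7 family often work as light chains bound to a Slc3 heavy chain. Neurons load transmitters into vesicles with Slc17, Slc18 and Slc32 proteins and clear them from the cleft with Slc1 and Slc6 proteins, whereas Slc25 proteins link the cytosol to the mitochondrial matrix.

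Every value below is a log2 ratio of mutant over wild type with each array's median probe set to 0. A ratio gives no level, so whether a carrier was expressed in cortex could not be judged, and the tissue label could not be checked by the presence of markers. The direction of the ratios rests on the targeted gene: Mest lay between -2.07 and -1.36 on the 6 arrays, with a fitted ratio of -1.59 ± 0.13 (SE, n = 6). An array held values for 75.4% to 89.9% of all probes, fewest for mutant 5. In whole tissue, fewer cells of a type and less RNA per cell cannot be told apart.

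No solute carrier was called different between mutant and wild type after correction over all probes. Of the 261 probes, 225 probes of 212 genes had enough values to be tested (at least 4 arrays, with 2 in each dye orientation). At an adjusted p under 0.05 (limma, Benjamini-Hochberg over 17476 probes) 0 of the 225 were called, against 0 of all tested probes (0%). The targeted gene Mest did not pass either, at an unadjusted p of 3.44e-05 and an adjusted p of 0.601 in limma. The absence of calls therefore does not show that the carriers were unchanged. At an unadjusted p under 0.05 in limma there were 6 carriers, 2.67% of those tested, where 3.93% of all probes passed. Of these 6, Slc20a1 and Slc39a13 lay above 0 (0.889%, against 1.6% of all probes) and Slc35a3, Slc22a16, Slc20a2 and Slc19a2 lay below (1.78%, against 2.33%). The carriers therefore passed this looser threshold no more often than other probes did. The counts moved with single arrays: the higher probes numbered 1 without mutant 3, 5 without mutant 5 and 6 without mutant 1, and the lower ones 0 without mutant 3, 7 without mutant 1 and 0 without mutant 7. The share of all probes was not computed for these fits.

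The scaling set the split between higher and lower. With the arrays centred on their Gapdh control spots, the median fitted ratio of all tested probes moved from 0.0069 to 0.26 and that of the carriers from 0.030 to 0.29. On that scale 40 carriers lay above 0 at an unadjusted p under 0.05 (17.8%, against 15.3% of all probes) and 2 below (0.889%, against 0.515%). Without centring, 2 lay above (0.889%, against 1.02%) and 0 below (against 0.252%). Ratios near 0 are therefore read here only relative to the median probe of the array.

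By sign alone, 11 of the 225 probes lay on the same side of 0 on every array with a value (4.89%, against 5.57% of all probes). Above 0 throughout were Slc7a13, Slc25a24, Slc25a37, Slc11a2, Slc20a1 and Slc39a13 (2.67%, against 2.44%). Below 0 throughout were Slc7a10, Slc25a4, Slc19a2, Slc20a2 and Slc39a4 (2.22%, against 3.12%). Over genes, 123 of the 212 had a fitted ratio above 0 and 89 below (58% above, against 50.2% of all genes), with a median of 0.039 against 0.0013. The mean over carrier genes was 0.029 ± 0.052 (SD over 6 arrays).

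**Figure D1:**
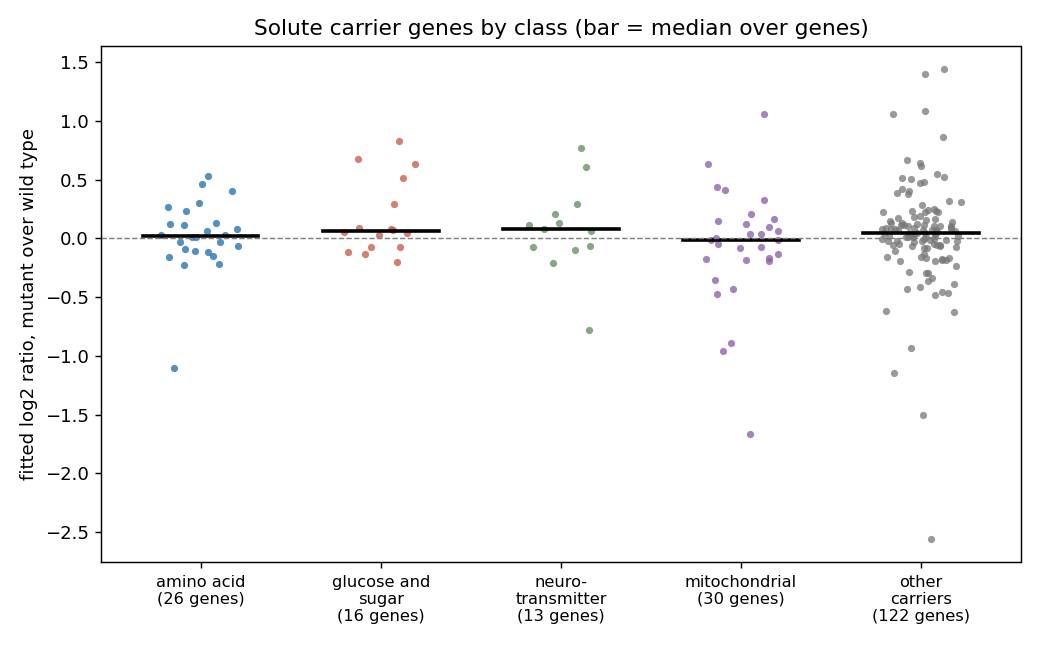
Fitted log2 ratio of mutant over wild type (vertical axis) for each tested solute carrier gene, by class (horizontal axis), with a bar at the class median. The medians run from -0.015 for mitochondrial carriers to 0.082 for neurotransmitter transporters, with the widest scatter among the other carriers, from -2.55 to 1.44.

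Amino acid transporters as a class lay near the array median. Of 26 tested genes 15 had a fitted ratio above 0 and 11 below, with a median of 0.019, and none reached an unadjusted p under 0.05 in limma. The mean over their genes was 0.21, 0.17 and 0.17 where mutants 3, 5 and 6 were in Cy5, and -0.32, 0.061 and -0.048 where mutants 1, 4 and 7 were in Cy3. It was 0.041 ± 0.20 (SD, n = 6 arrays), so the mean was small beside the spread over arrays. The array of mutant 1 stood lowest, and all Cy5 means lay above all Cy3 means.

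The heavy chain Slc3a2 and its partner Slc7a5, which together exchange large neutral amino acids, differed little from the median probe. In the order of mutants 3, 5, 6, 1, 4 and 7, which is kept from here on, Slc3a2 measured -0.002, -0.29, 0.010, 0.15, 0.073 and 0.13. Its fitted ratio was 0.012 (95% confidence interval -0.20 to 0.22, n = 6). Slc7a5 measured -0.025, -0.33, -0.33, 0.33, -0.17 and 0.002, with a fitted ratio of -0.088 (-0.35 to 0.18). Both genes had values on either side of 0.

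The system A transporters Slc38a1 and Slc38a2 import small neutral amino acids such as glutamine and alanine with sodium. Slc38a1 measured -0.32, 0.063, 0.17, -0.085, 0.23 and 0.32, and was fitted at 0.063 (-0.21 to 0.33). Slc38a2 measured -0.29, -0.001, -0.093, 0.35, 0.24 and -0.13, and was fitted at 0.013 (-0.27 to 0.29). Neither had a common sign. The system N transporter Slc38a3 was positive on 5 arrays, at 0.85, 0.60 and 0.45 with the mutant in Cy5 and at -0.53, 0.28 and 0.17 with the mutant in Cy3. Its fitted ratio was 0.30 ± 0.16 (SE, adjusted p = 0.901 in limma), and the lowest Cy5 value exceeded the highest Cy3 value.

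Among the light chains, Slc7a10, which carries small neutral amino acids such as serine and glycine, was below 0 on all 6 arrays. It measured -0.33, -0.13, -0.050, -0.087, -0.41 and -0.33. The fitted ratio was -0.22 ± 0.10 (SE, unadjusted p = 0.0669, adjusted p = 0.901 in limma), the smallest p of the class. It lay at 0.037 when the arrays were centred on Gapdh, so its sign changed with the scaling. Slc7a13, an acidic amino acid carrier known from kidney, was above 0 on all arrays, but only by 0.037, 0.039 and 0.017 in one dye orientation and by 0.20, 0.27 and 0.21 in the other. Slc7a9, a light chain known from kidney and gut, measured 1.04, 0.57, -0.78, 1.0 and 0.23 on 5 arrays without mutant 5, with a fitted ratio of 0.53 ± 0.34 (SE).

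Slc7a11, the cystine and glutamate exchanger, is known as a target of Atf4, a transcription factor that responds to amino acid shortage through a composite element in promoters. Promoters of the carriers were taken from RefSeq (GRCm38.p6, 250 bases before to 50 after each annotated start), where 195 of the 244 genes matched. They were searched on both strands for that element, written TGATGNAAN. It was present in 9 of 254 carrier promoters (3.54%, against 3.95% of 32851 promoters of all genes) and in 4 of 28 promoters of amino acid transporters (14.3%), those of Slc7a11, Slc1a4 and 2 overlapping promoters of Slc7a7. The promoters of Slc7a11 (chr3:50443564-50443863, minus strand) and Slc1a4 (chr11:20332664-20332963, minus strand) are shown because both genes were measured here and hold the element, with its letters on either strand in capitals.
Slc7a11: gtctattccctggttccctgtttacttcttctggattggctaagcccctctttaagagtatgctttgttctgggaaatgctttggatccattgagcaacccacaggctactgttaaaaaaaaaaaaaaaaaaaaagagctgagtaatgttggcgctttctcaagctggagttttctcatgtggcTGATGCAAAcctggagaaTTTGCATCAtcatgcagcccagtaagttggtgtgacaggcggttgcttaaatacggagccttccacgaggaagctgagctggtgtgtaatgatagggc
Slc1a4: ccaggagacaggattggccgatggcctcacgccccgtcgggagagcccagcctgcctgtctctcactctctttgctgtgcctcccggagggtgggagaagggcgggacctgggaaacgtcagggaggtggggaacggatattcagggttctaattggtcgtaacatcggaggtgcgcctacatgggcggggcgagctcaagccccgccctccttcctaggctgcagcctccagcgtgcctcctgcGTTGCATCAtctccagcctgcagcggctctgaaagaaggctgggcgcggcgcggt
In Slc7a11 the 2 matches begin at positions -66 and -48 from the annotated start and face each other, and in Slc1a4 the match begins at -5. A match describes the letters and not a bound site.

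Slc7a11 had values on 4 arrays, at 0.54 and 0.46 for mutants 3 and 6 and at -0.87 and -0.72 for mutants 1 and 4. Its sign followed the dye orientation, and the fitted ratio was -0.15 ± 0.11 (SE, adjusted p = 0.901 in limma). Slc1a4, a neutral amino acid exchanger, measured -0.21, 0.097, -0.16, -0.018, -0.092 and 0.17, with a fitted ratio of -0.035 (-0.27 to 0.20). In Slc7a7, a light chain for cationic amino acids, the values again split by dye, at 1.52 and 1.01 against -1.25 and -0.39. The 3 amino acid transporters that hold the element thus had no common direction relative to the array median. Among tested carriers of other classes with a match, Slc23a3 was fitted at 0.66 and Slc50a1 at -0.075.

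Of 20 genes listed as amino acid response targets of Atf4, 19 were tested. Of these 4 lay above 0 and 15 below (21.1% above, against 50.2% of all genes), with a median of -0.056. The list was not tested. Wars, a tRNA synthetase, was the only one of 19 probes at an unadjusted p under 0.05 in limma, where 3.93% of all probes passed. It had values from -0.55 to -0.037 on all 6 arrays and a fitted ratio of -0.26 ± 0.10 (SE, adjusted p = 0.901 in limma). Psat1, an enzyme of serine synthesis, was fitted at -0.23 ± 0.11 (SE). The Gapdh control spots lay below the median probe on every array, from -0.05 for mutant 1 to -0.49 for mutant 5. Ratios relative to those spots are therefore higher, by an amount that differs between arrays.

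Glucose and sugar transporters were all tested, 16 genes in number, with 11 fitted ratios above 0 and 5 below and a median of 0.060. The mean over genes was -0.13, 0.26, -0.15, 0.47, 0.27 and 0.20 in the same order, or 0.15 ± 0.25 (SD, n = 6 arrays). The array of mutant 1 stood highest. On it the Slc37a2 value was 5.52, against values from -0.98 to 0.002 on the other 5. The median over the same genes on that array was 0.12, so the class mean rested on few genes. None of the 16 reached an unadjusted p under 0.05 in limma.

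The main glucose importers of the embryonic brain were close to 0. Slc2a1 (GLUT1), found in vessels and neural cells, measured 0.10, -0.16, 0.002, 0.070, 0.19 and -0.050. Its fitted ratio was 0.026 (95% confidence interval -0.19 to 0.25, n = 6). Slc2a3 (GLUT3), the neuronal importer, measured -0.044, -0.24, -0.17, 0.26, 0.004 and 0.50, with a fitted ratio of 0.052 (-0.20 to 0.31). All 3 Cy5 values of Slc2a3 were negative and all 3 Cy3 values positive. Endothelial markers, which bear on Slc2a1, had a list mean of -0.11 ± 0.19 (SD over 6 arrays; 5 of 12 genes above 0, list means from -0.32 to 0.20), and their part in the Slc2a1 value was not tested.

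The insulin-responsive transporter Slc2a4 (GLUT4) was below 0 on 5 of 6 arrays. It measured -0.22, -0.001, 0.11, -0.47, -0.24 and -0.41, and was fitted at -0.20 ± 0.088 (SE, unadjusted p = 0.0631, adjusted p = 0.901 in limma). Slc2a8, an intracellular sugar transporter, measured -0.16, -0.24, 0.096, -0.081, -0.23 and -0.061 and was fitted at -0.11 (-0.33 to 0.10). Both lay above 0 when the arrays were centred on Gapdh, at 0.056 and 0.15. The liver and pancreas transporter Slc2a2 ranged from -0.38 to 1.84, with its highest values for mutants 1 and 5.

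Slc5a1, the sodium-coupled glucose transporter known from gut and kidney, had the highest fitted ratio of the class. It measured 1.54 and 0.65 for mutants 3 and 6 and 0.062, 1.36 and -0.061 for mutants 1, 4 and 7, with no value for mutant 5. The fitted ratio was 0.83 ± 0.31 (SE, n = 5, unadjusted p = 0.0526, adjusted p = 0.901 in limma). Its sign held in every alternative that gave a value, from 0.45 to 1.17. The related Slc5a2, Slc5a4a and Slc5a4b were fitted at 0.084, 0.050 and 0.068. Slc5a4a and Slc5a4b are related genes whose sequences were not compared here, so whether a probe reads only 1 of them is uncertain.

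Neurotransmitter transporters gave 13 tested genes, with 17 probes. Of the genes 8 had a fitted ratio above 0 and 5 below, with a median of 0.082, and none reached an unadjusted p under 0.05 in limma. The class mean was -0.096, -0.084 and -0.11 with the mutant in Cy5 and 0.25, 0.23 and 0.27 with the mutant in Cy3, so the orientations did not overlap. Without Slc6a9 the means of the other 12 genes were 0.052, 0.21, 0.040, 0.12, 0.029 and 0.10, and the orientations overlapped. Leaving this gene out was chosen after the values were seen.

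**Figure D2:**
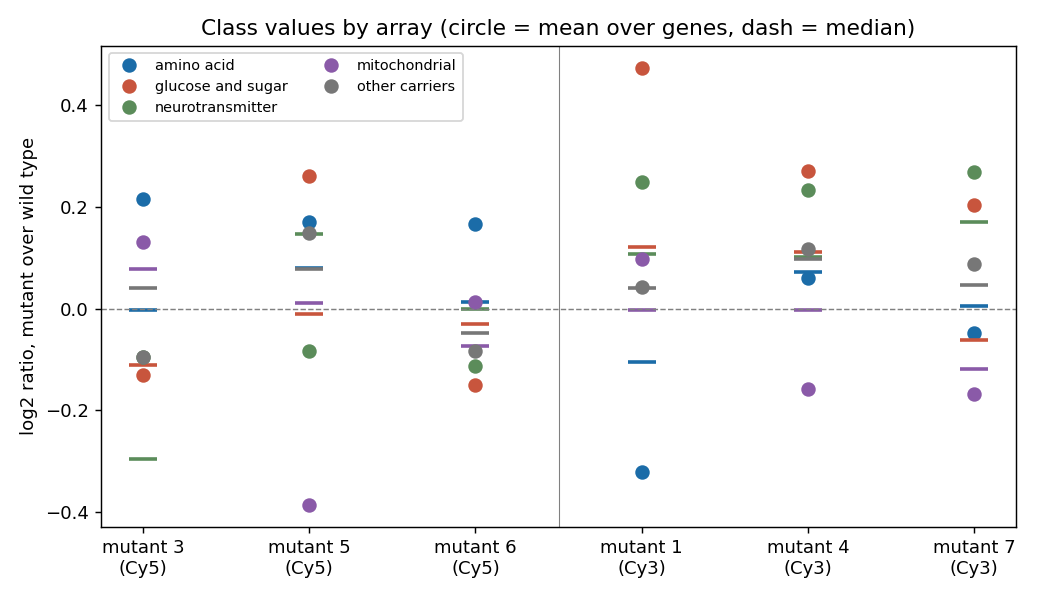
Mean (circle) and median (dash) log2 ratio of mutant over wild type over the tested genes of each class (vertical axis) on each array (horizontal axis, with the dye of the mutant). The neurotransmitter means lie between -0.11 and -0.084 on the Cy5 arrays and between 0.23 and 0.27 on the Cy3 arrays and the amino acid means between 0.17 and 0.21 against -0.32 and 0.061, while the other 3 classes overlap between orientations.

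Slc6a9, the glycine transporter GlyT1, had the strongest dye pattern of all carriers by its p. It measured -1.87, -3.31 and -1.94 with the mutant in Cy5 and 1.76, 2.70 and 2.28 with the mutant in Cy3. Whichever embryo carried Cy5 thus gave the lower signal. The dye coefficient (Cy5 minus Cy3 orientation) was -4.62 ± 0.47 (SE, adjusted p = 0.049 in limma), and the fitted genotype ratio was -0.065 ± 0.30 (SE). Slc6a9 was the only carrier called for dye, 0.444% of those tested against 0.269% of all probes. The call was lost when any 1 array was left out.

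Among the glutamate transporters, Slc1a2 (GLT-1), the main glutamate importer of mature astrocytes, also separated by dye. It measured 3.26, 1.75 and 0.33 with the mutant in Cy5 and -0.32, -0.13 and -0.27 in Cy3. The fitted ratio was 0.77 ± 0.43 (SE, adjusted p = 0.901 in limma), positive in one orientation alone. The neuronal importer Slc1a1 had 2 probes of opposite sign. The first measured 0.016, -0.14, -0.15, -0.046, -0.17 and -0.56 and the second 0.68, 0.12, 0.32, 2.43, 0.47 and -0.48. Their fitted ratios were -0.17 ± 0.10 and 0.59 ± 0.42 (SE), so the gene has no single value.

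Slc17a6 (VGLUT2), which loads glutamate into vesicles of early neurons, was read by 2 probes that moved together from array to array. The first measured -0.38, 0.70, -0.087, -0.29, 0.54 and -0.52 and the second -0.53, 0.76, -0.076, -0.36, 0.28 and -1.27. Both were positive for mutants 5 and 4 and negative for the other 4 mutants. Mutants 5 and 4 were compared with the same wild type, number 8, so a property of that cortex and of those mutants cannot be told apart. The fitted ratios were -0.006 (-0.54 to 0.53) and -0.20 (-0.90 to 0.50). Slc17a7 (VGLUT1) had values of 3.97, 1.42 and 5.14 for mutants 1, 4 and 7 only and was not tested.

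Slc32a1, the vesicular transporter of GABA and glycine, measured -0.20, 0.24, -0.19, 0.41, -0.11 and 0.52. Its fitted ratio was 0.11 (-0.27 to 0.49), with 3 arrays on each side of 0. Markers of ventral interneurons, the cells that use it, had list means of 0.13, 0.27 and 0.43 on the Cy5 arrays and -0.18, -0.23 and -0.58 on the Cy3 arrays, with 6 of 10 genes above 0. The list medians were 0.020, 0.43 and 0.032 against -0.105, 0.060 and -0.27, so the medians overlapped between orientations where the means did not. The order of the arrays differed between Slc32a1 and that list, and the part of these cells in the Slc32a1 value was not tested. Slc18a3, the vesicular acetylcholine transporter, measured 1.03, 1.95, 0.31, 0.10, -0.39 and 0.61 and had the smallest p of the class (fitted ratio 0.60 ± 0.31, SE; unadjusted p = 0.106, adjusted p = 0.901 in limma). A list of transmitter synthesis and metabolism also held enzymes of breakdown (Maoa, Abat) and of general glutamate metabolism (Got1, Got2, Glud1). Of its 11 tested genes 5 lay above 0 and 6 below, and 0 passed an unadjusted p under 0.05.

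Mitochondrial carriers, which belong to the Slc25 family, were tested for 30 of 36 genes. Of these 14 had a fitted ratio above 0 and 16 below, with a median of -0.015, and none reached an unadjusted p under 0.05 in limma. The class mean was 0.13, -0.39, 0.013, 0.098, -0.16 and -0.17 on the 6 arrays, or -0.078 ± 0.20 (SD). The lowest mean came from mutant 5, where Slc25a29 measured -6.89 and Slc25a35 measured -4.07, while the median over genes there was 0.012. Of the 30 probes 9 varied over arrays with an SD above 1 (30%, against 22.8% of all probes and 21.8% of all carriers).

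Slc25a4 and Slc25a5 exchange ADP for ATP across the inner membrane. Slc25a4 was below 0 on all 6 arrays, at -0.35, -0.19, -0.25, -0.002, -0.16 and -0.19. The fitted ratio was -0.19 ± 0.079 (SE; 95% confidence interval -0.39 to 0.008; unadjusted p = 0.0572, adjusted p = 0.901 in limma), and it lay at 0.070 when centred on Gapdh. Slc25a5, the X-linked form, measured -0.11, 0.082, -0.094, 0.071, 0.015 and -0.46 and was fitted at -0.083 (-0.36 to 0.19). The germ-cell form Slc25a31 measured 1.24 and 2.81 for mutants 5 and 6 and 1.0 and -0.82 for mutants 4 and 7. These genes are close in sequence, so the identity of the form read by each probe is uncertain.

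Slc25a11, which exchanges oxoglutarate and malate, measured 0.23, -0.94, -0.24, -0.19, -1.16 and -0.26. Its lowest values came from mutants 5 and 4, which share wild type 8, and the fitted ratio was -0.43 ± 0.21 (SE, adjusted p = 0.901 in limma). The phosphate carrier Slc25a3 was also lowest on those arrays, at -0.54 and -0.50 against values from -0.030 to 0.15 on the others. The citrate carrier Slc25a1, which exports citrate for lipid synthesis, measured -0.79, -0.16, 0.011, 0.996, -2.91 and -2.89. Its fitted ratio of -0.96 ± 0.69 (SE) rested on mutants 4 and 7.

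Slc25a46, an outer membrane protein involved in mitochondrial fission, was positive on 4 arrays, at 0.51, 0.47, 0.56, -0.14, -0.024 and 1.10. It was fitted at 0.41 ± 0.21 (SE, adjusted p = 0.901 in limma), and its sign held in every alternative, from 0.22 to 0.67. Slc25a37 (mitoferrin 1), the mitochondrial iron importer of red cell precursors, was positive on all 6 arrays, at 0.059, 2.43, 0.43, 0.13, 0.10 and 0.64. Mutant 5 set its size: the fitted ratio was 0.63 ± 0.39 (SE) with that array, and the lowest value on leaving out single arrays was 0.27. Slc25a35, a carrier of unsettled substrate, measured -0.87, -4.07, -0.52, 0.69, 0.32 and -0.89. Slc25a24, an ATP and phosphate carrier, was above 0 on all arrays by 0.035 to 0.235.

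Markers of red cell precursors were set beside the iron and anion carriers. The 10 tested erythroid marker genes had list means of -0.42, -0.067, -0.014, -0.44, -0.14 and -0.315, below 0 on all 6 arrays, and 9 of the 10 genes lay below 0. Of their 12 probes, 4 were lower at an unadjusted p under 0.05 in limma, against 2.33% of all probes tested: Hbb-bh1, Hbb-y, Alas2 and 1 of the 2 Hba-x probes, each with an adjusted p of 0.901. Slc4a1 (band 3), the anion exchanger of red cells, measured -0.80, -0.53 and -0.64 with the mutant in Cy5 and 0.19, -0.065 and 0.83 in Cy3. Its fitted ratio was -0.17 ± 0.15 (SE), and its array pattern followed the dye, unlike the list. Slc25a37 lay above 0 on the arrays where the list lay below. The part of red cells in these values was not tested.

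**Figure D3:**
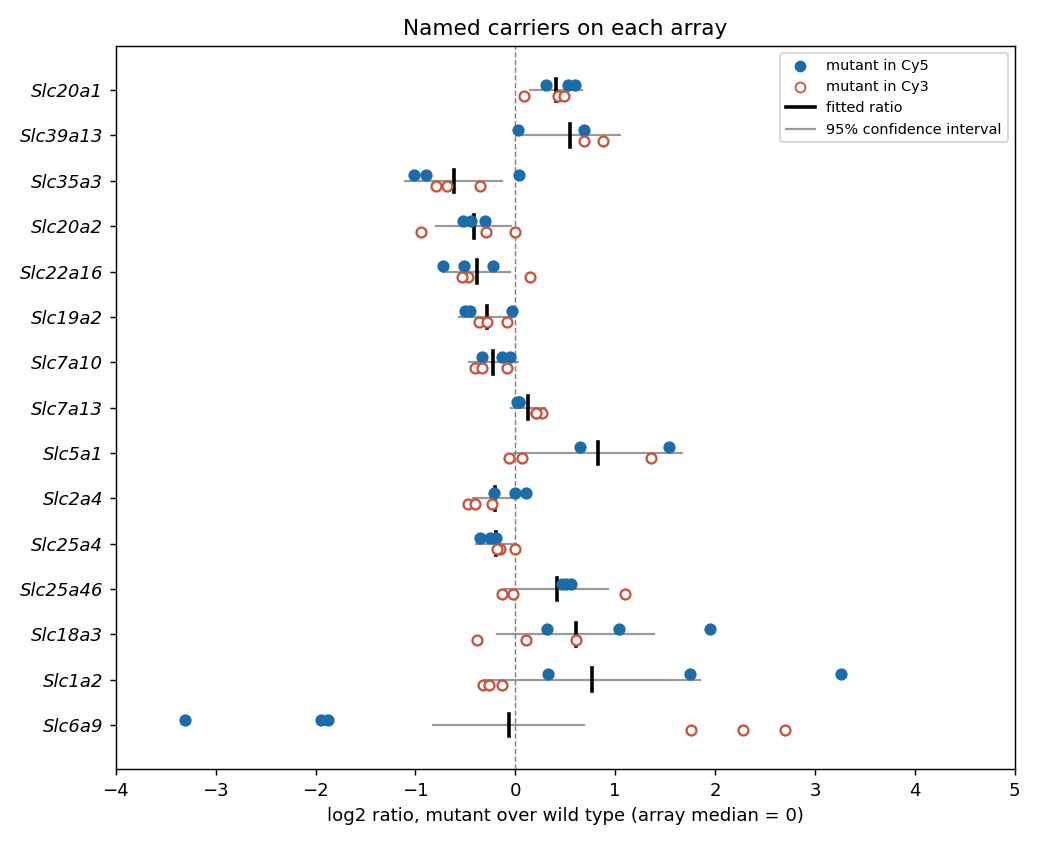
Log2 ratio of mutant over wild type (horizontal axis) for 15 carriers (vertical axis), with filled circles for arrays with the mutant in Cy5, open circles for those with the mutant in Cy3, a bar for the fitted ratio and a line for its 95% confidence interval. Slc20a1 lies above 0 and Slc20a2 below 0 on all 6 arrays, and the Slc6a9 circles part into a Cy5 group from -3.31 to -1.87 and a Cy3 group from 1.76 to 2.70.

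The other carriers held all 6 probes with an unadjusted p under 0.05. They comprised 122 tested genes, 73 with a fitted ratio above 0 and 49 below, with a median of 0.045. Their class mean was -0.096, 0.15, -0.084, 0.042, 0.12 and 0.087, or 0.036 ± 0.10 (SD, n = 6 arrays).

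The pair of sodium-coupled phosphate importers, Slc20a1 (PiT-1) and Slc20a2 (PiT-2), lay on opposite sides of 0 on every array. These proteins supply cells with inorganic phosphate and also serve as receptors for gammaretroviruses. Slc20a1 measured 0.52, 0.60, 0.31, 0.088, 0.43 and 0.49. Slc20a2 measured -0.30, -0.52, -0.44, -0.007, -0.94 and -0.295. The values of mutant 1 were the closest to 0 for both, and the other 5 arrays had Slc20a1 at 0.31 or more and Slc20a2 at -0.295 or less.

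The fitted ratio of Slc20a1 was 0.41 ± 0.10 (SE; 95% confidence interval 0.14 to 0.67; unadjusted p = 0.00999, adjusted p = 0.901 in limma), or 1.32-fold higher in the mutants. This was the smallest p among the carriers. The fitted ratio of Slc20a2 was -0.42 ± 0.15 (SE; -0.79 to -0.040; unadjusted p = 0.0357, adjusted p = 0.901 in limma), or 1.34-fold lower. In the alternatives the fitted ratio ranged from 0.34 to 0.67 for Slc20a1 and from -0.51 to -0.16 for Slc20a2, with adjusted p from 0.295 to 0.999 and from 0.511 to 0.999. Neither difference passed the correction. The gap between both genes within an array does not depend on centring. It was 0.82, 1.12, 0.75, 0.095, 1.37 and 0.78, with a mean of 0.82 ± 0.43 (SD, n = 6), and is given as a description because the pair was chosen for its pattern.

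A promoter of Slc20a1 (chr2:129198523-129198822, plus strand, GRCm38.p6, from RefSeq) is shown because the gene led the list. Capitals mark the E-box CACGTG, the site type read by Myc and related factors, and a TATAAA.
Slc20a1: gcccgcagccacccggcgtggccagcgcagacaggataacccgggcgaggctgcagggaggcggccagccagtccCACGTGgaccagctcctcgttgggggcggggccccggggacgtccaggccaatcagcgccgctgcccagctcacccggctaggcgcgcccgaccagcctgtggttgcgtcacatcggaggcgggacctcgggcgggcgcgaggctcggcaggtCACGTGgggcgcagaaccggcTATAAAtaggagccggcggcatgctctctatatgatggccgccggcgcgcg
In it the E-boxes begin at positions -175 and -22 from the annotated start and the TATAAA at -1. Another RefSeq promoter of the gene (chr2:129206846-129207145, plus strand), not shown, held 0 E-boxes and 0 TATAAA. On both strands the E-box occurred in 34 of 254 carrier promoters (13.4%) and in 7.15% of promoters of all genes. By class it was in 8 of 37 promoters of mitochondrial carriers (21.6%) and 2 of 28 of amino acid transporters (7.14%). TATAAA was in 9.06% of carrier promoters and 13.6% of all. Carrier promoters were also richer in G and C (median 59% against 52.7%), and the share of this CG-holding motif was not corrected for that. Slc20a2 was not analysed here for its promoter.

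Slc35a3, which brings UDP-N-acetylglucosamine into the Golgi for glycosylation, had the largest fitted ratio of the 6. It measured -0.90, -1.02, 0.036, -0.35, -0.80 and -0.68, so 5 of 6 mutants lay well below 0 and mutant 6 did not. The fitted ratio was -0.62 ± 0.19 (SE; -1.10 to -0.13; unadjusted p = 0.0216, adjusted p = 0.901 in limma), or 1.53-fold lower. It kept its sign in every alternative, from -0.79 to -0.36. The 14 tested Slc35 genes, grouped by family name and not all known to carry nucleotide sugars, had 5 fitted ratios above 0 and 9 below, with a median of -0.093. Their class mean was within 0.068 of 0 on 5 arrays and -0.46 on the array of mutant 7.

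Slc22a16, a carnitine and organic cation transporter, measured -0.72, -0.23, -0.52, -0.47, 0.14 and -0.54, negative in 5 of 6 mutants. Its fitted ratio was -0.39 ± 0.13 (SE, unadjusted p = 0.0312, adjusted p = 0.901 in limma). Slc19a2, the thiamine importer, was below 0 in all 6, at -0.45, -0.51, -0.038, -0.082, -0.36 and -0.28, with a fitted ratio of -0.29 ± 0.11 (SE, unadjusted p = 0.0434, adjusted p = 0.901 in limma). Without centring it was fitted at -0.034.

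Among the metal transporters, Slc39a13, a zinc transporter of the secretory pathway, had values on 4 arrays. It measured 0.69 and 0.022 for mutants 3 and 6 and 0.88 and 0.69 for mutants 1 and 4. The fitted ratio was 0.54 ± 0.17 (SE, n = 4, unadjusted p = 0.0411, adjusted p = 0.901 in limma). The intestinal zinc importer Slc39a4 was below 0 on its 4 arrays, from -2.13 to -0.29. The iron importer Slc11a2 was above 0 on all 6, but by no more than 0.28 and by as little as 0.010. Over the 21 tested metal transporter genes 11 lay above 0 and 10 below, with a median of 0.011.

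Chloride in young neurons is set by Slc12a2 (NKCC1), which imports it, and Slc12a5 (KCC2), which exports it later in development. Slc12a2 measured -1.54, 0.11, 0.044, 0.035, 0.15 and 0.055. Mutant 3 alone was low, and the fitted ratio of -0.19 ± 0.27 (SE) turned to 0.075 without it. Slc12a5 measured 0.18, -0.24, -0.33, 0.19, 0.14 and 0.19, and was fitted at 0.021 (-0.24 to 0.28). Slc12a9 was low with the mutant in Cy5, at -3.12, -6.06 and -1.33, and at 0.30, 0.23 and 0.97 in Cy3. Of the sodium potassium ATPase, which drives these transporters, 8 genes of beta subunits and Fxyd regulators were tested, but no catalytic alpha subunit. Of these 8, 3 lay above 0 and 5 below, with a median of -0.089 and 0 at an unadjusted p under 0.05.

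Of the monocarboxylate transporters, Slc16a1 (MCT1), which carries lactate and ketone bodies, measured -4.42, 1.40, 1.13 and 0.66 for mutants 5, 6, 1 and 4. Mutant 5 decided its fitted ratio of -0.13 ± 1.19 (SE), since the other 3 were positive. Bicarbonate and anion exchangers of the Slc4 and Slc26 families had 9 of 10 fitted ratios above 0, with a median of 0.14, where 50.2% of all genes lay above 0. Their class mean was 0.16, 0.44, -0.017, 0.020, 0.52 and 0.11, highest on both arrays that share wild type 8. Single genes stood out there, Slc4a10 at 2.67 for mutant 5 and Slc4a4 at 5.61 for mutant 4. The medians over genes were 0.093, 0.11, -0.061, 0.079, 0.094 and 0.15, highest for mutant 7. None of the 10 reached an unadjusted p under 0.05 in limma, and Slc4a1 was the one below 0.

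Carriers that are imprinted in mouse are of interest because Mest is imprinted. Slc38a4, a paternally expressed amino acid transporter, had 1 tested probe, at -5.61, 0.18, 0.40, 0.60 and 0.58 for mutants 5, 6, 1, 4 and 7. The 4 arrays other than that of mutant 5 were all positive, and the fitted ratio of -1.10 ± 1.01 (SE, adjusted p = 0.901 in limma) rested on that array. A second probe, with values of 0.74, 1.10 and 4.98 on 3 arrays, was not tested. Slc22a18, a maternally expressed organic cation transporter, measured 0.19, -0.14, -0.22, 0.29, -0.20 and -0.32 and was fitted at -0.067 (-0.37 to 0.23). Slc22a2, imprinted in placenta, ranged from -0.55 to 1.06 and was fitted at -0.019 (-0.68 to 0.64).

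Over all carriers the dye orientation parted many probes. In 64 of 225 probes all Cy5 values lay on one side of all Cy3 values (28.4%, against 29.8% of all probes). The Cy5 values were above in 24 (10.7%, against 14.5%) and below in 40 (17.8%, against 15.3%). Both probes of Slc7a2, an arginine transporter, shared such a split: -0.14, -0.37 and -0.28 against 0.35, 0.26 and 0.21 for the first, and -0.020, -0.16 and -0.083 against 0.16, 0.15 and 0.22 for the second. The taurine transporter Slc6a6 split the other way, at 0.26, 0.56 and 0.13 against -0.23, -0.38 and -0.51. The carriers thus shared the array-wide share of such splits, and a ratio from one orientation alone does not separate genotype from dye.

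**Figure D4:**
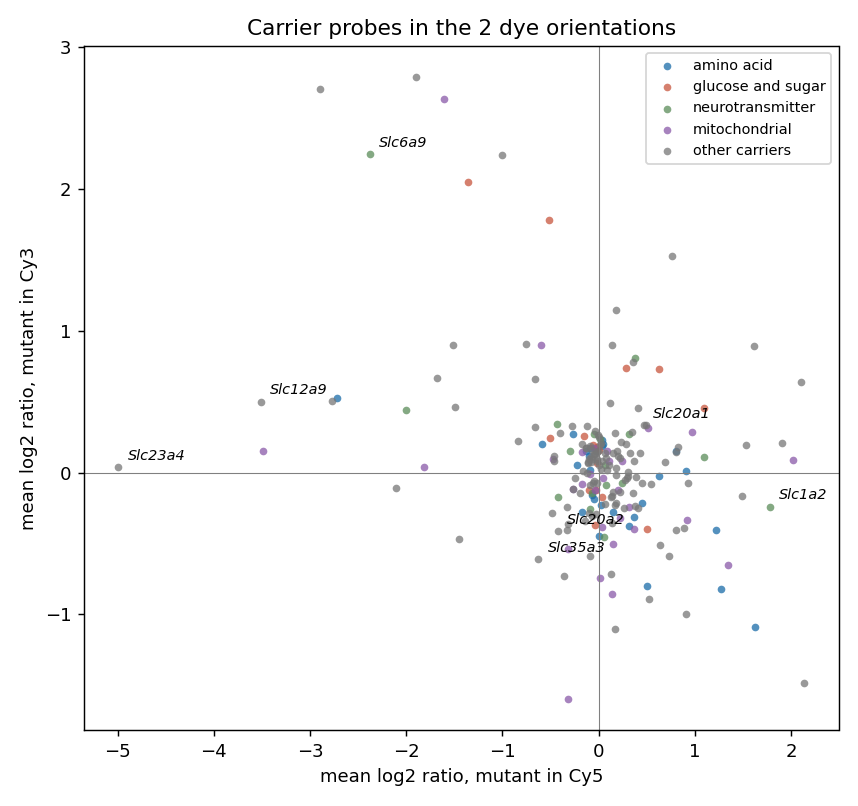
Mean log2 ratio of mutant over wild type with the mutant in Cy5 (horizontal axis) and in Cy3 (vertical axis) for each tested solute carrier probe, coloured by class. Slc20a1 lies in the upper right and Slc20a2 and Slc35a3 in the lower left, where both orientations have the same sign, whereas Slc6a9 lies in the upper left, with a dye coefficient of -4.62.

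Not every carrier could be described. Of the 261 probes 36 were not tested, 32 of them with 3 values or fewer, and Slc25a22, a mitochondrial glutamate carrier, had none. Of the tested probes 172 had values on 6 arrays, 32 on 5 and 21 on 4. Of 12 genes with more than 1 tested probe, 4 had probes of opposite sign (Slc1a1, Slc8a1, Slc24a2 and Slc35e3). Slc22a3 was not analysed here. The labels give no sex, and Xist, transcribed in females, ranged from -2.38 to 3.18. Of Y-linked genes, Eif2s3y ranged from -0.62 to -0.12, Uty from -3.255 to 0.59 and Kdm5d from -0.58 to 0.75. Eif2s3y was fitted at -0.35 ± 0.10 (SE, unadjusted p = 0.0189, adjusted p = 0.901 in limma). The part of sex in the carrier values was not tested. The 6 X-linked carriers tested (Slc6a14, Slc7a3, Slc25a14, Slc25a5, Slc25a53 and Slc35a2) had no unadjusted p under 0.05.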

How the data were processed

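Each of 6 two-colour arrays compared RNA of a single mutant cortex with that of a single wild-type cortex. Trizol was used for extraction, per the labels' protocols. The authors deposited 1 log2 ratio per probe and array. The direction, scale, scanner software, background treatment and normalization are not stated in the labels or the header. From the dye labels and Mest, the values were taken to be log2 ratios with Cy5 in the numerator.

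Ratios were expressed as mutant over wild type, and the probe median of each array was subtracted. The ceiling value of 16.61 was treated as missing (6 member values), and 232 Gapdh control spots were left out. Probes with values on at least 4 arrays, with 2 or more in either orientation, entered a limma 3.58.1 fit (R 4.3.3) with a dye term and the wild type as a random block (consensus correlation 0.25). Benjamini-Hochberg adjustment at 0.05 ran over 17476 probes. The wild type labelled 1 was read as 2. The fit was tested on simulated data. Precision is limited by how many arrays there are, and spot intensities were not used here.

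All 261 member symbols, from the array's annotation, matched the gene table of assembly GRCm38.p6, and 2 probes with several names were left out. Some solute carrier genes are not reported here. Class values average a gene's probes first. Named genes were a fixed list, the imprinted carriers, the 4 smallest genotype p-values of the amino acid, sugar and neurotransmitter classes each, the 6 smallest of the mitochondrial and other carriers, and carriers called for dye. Other genes are named as examples chosen after their values were seen. The members and lists were chosen with earlier results of these data known. Proteins were not analysed here.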

Additional observations from a re-analysis of the deposited data

Results flagged for a closer look

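Of 48 results checked for 1 array far from the others of the group, 8 stood out, and chance marks about 1 in 20 groups. Of the 8, 5 came from the array of mutant 5, which also had the fewest probes with a value. They were Slc38a4 at -5.607, Slc16a1 at -4.418, Slc25a35 at -4.065, Slc25a37 at 2.431 and Slc3a2 at -0.294, each the extreme of its 4 to 6 values. The array of mutant 7 stood apart for Slc25a5 at -0.464 and for the first probe of Slc1a1 at -0.559. The array of mutant 3 stood apart for Slc12a2 at -1.536.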

How the results depend on the processing

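Over all alternatives, 17 of the 43 named probes kept the sign of their fitted ratio, Slc20a1, Slc20a2 and Slc35a3 among them, and 26 changed it at least once. The count of carriers at an adjusted p under 0.05 for genotype was 0 in every limma alternative run, with 2 higher and 4 lower at an unadjusted p under 0.05 in the reported setting. The smallest adjusted p of a named probe in any alternative was 0.295.

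The lower carriers at an unadjusted p under 0.05 numbered 8 without the wild-type block, 7 without the dye term and 0 without centring. Centred on Gapdh, 40 were higher and 2 lower. Under quantile normalization 4 were higher, and with values required on all 6 arrays 1 was. With the mutant in Cy5 only, 10 were higher and 7 lower, and with the mutant in Cy3 only, 11 and 12. These single-orientation fits had no dye term and took probes with at least 2 values, so their tested set differed. At an unadjusted p, the share of all probes was computed only for the reported, uncentred and Gapdh settings. The other counts are therefore not compared with the array-wide rate. The count called for dye was 1 as reported. It was 0 without the block, when centred on Gapdh, with ceiling values kept and with 1 value per gene, 4 without centring and 2 under quantile normalization. For the dye term the share of all probes was computed only for the reported setting (0.444% of carriers, against 0.269%). The other dye counts are therefore not compared with the array-wide rate either. Leaving out each array in turn gave 1 to 6 higher, 0 to 7 lower and 0 to 0 called for dye.

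The class means of amino acid, sugar, neurotransmitter, mitochondrial and other carriers were 0.29, 0.41, 0.33, 0.17 and 0.29 without centring and 0.30, 0.42, 0.34, 0.18 and 0.30 when centred on Gapdh. The neurotransmitter mean was 0.48 with the mutant in Cy3 only, where Slc17a7, with values of 3.97, 1.42 and 5.14 on those arrays alone, joined the 13 genes of the reported setting. Over those 13 genes it was 0.25 on the same arrays, and over all arrays without Slc6a9 it was 0.093, both alternatives chosen after seeing the data. Leaving out each array gave -0.0016 to 0.093, 0.10 to 0.19, 0.038 to 0.17, -0.12 to -0.044 and -0.0020 to 0.069 for the 5 classes.

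With the wild type labelled 1 kept on its own, the sign turned for Slc22a2 (0.022). Without centring, the sign turned for Slc7a10 (0.029), Slc7a11 (0.15), Slc7a5 (0.16), Slc2a4 (0.048), Slc2a8 (0.14), Slc25a4 (0.062), Slc25a5 (0.17), Slc17a6 (first probe, 0.25), Slc17a6 (second probe, 0.052), Slc1a1 (first probe, 0.078), Slc6a9 (0.19), Slc12a2 (0.062), Slc16a1 (0.40), Slc22a18 (0.19) and Slc22a2 (0.23). Centred on Gapdh, the sign turned for Slc7a10 (0.037), Slc7a11 (0.061), Slc7a5 (0.17), Slc2a4 (0.056), Slc2a8 (0.15), Slc25a4 (0.070), Slc25a5 (0.18), Slc17a6 (first probe, 0.25), Slc17a6 (second probe, 0.061), Slc1a1 (first probe, 0.087), Slc6a9 (0.20), Slc12a2 (0.071), Slc16a1 (0.0036), Slc22a18 (0.19) and Slc22a2 (0.24). Under quantile normalization, the sign turned for Slc6a9 (0.087) and Slc16a1 (0.47). With 1 value per gene, the sign turned for Slc1a1 (first probe, 0.21). With the mutant in Cy5 only, the sign turned for Slc38a1 (-0.028), Slc38a2 (-0.13), Slc3a2 (-0.095), Slc7a11 (0.50), Slc2a1 (-0.019), Slc2a3 (-0.15), Slc17a6 (first probe, 0.076), Slc17a6 (second probe, 0.051), Slc32a1 (-0.046), Slc12a5 (-0.13) and Slc22a2 (0.18). With the mutant in Cy3 only, the sign turned for Slc38a3 (-0.026), Slc38a4 (0.53), Slc7a5 (0.053), Slc25a35 (0.042), Slc1a2 (-0.24), Slc6a9 (2.25), Slc12a2 (0.079) and Slc16a1 (0.90).

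On leaving out each array in turn, the sign turned at least once for Slc3a2 (-0.013 to 0.062), Slc2a1 (-0.0052 to 0.061), Slc17a6 (first probe, -0.16 to 0.093), Slc12a2 (-0.33 to 0.075), Slc12a5 (-0.055 to 0.073), Slc38a2 (-0.051 to 0.088), Slc6a9 (-0.23 to 0.17), Slc22a2 (-0.25 to 0.16) and Slc2a3 (-0.011 to 0.11). Leaving out some arrays took Slc38a4, Slc5a1, Slc7a9, Slc7a11, Slc16a1, Slc25a31 and Slc39a13 below the minimum of values, so those fits gave no value. The causes were not tested. No paired analysis was possible because the arrays carry no replicate number shared between groups, and each ratio already sets a mutant against its wild type.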

Other observations

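Several groups of carriers were not described above. The organic ion and bile acid transporters, 17 tested genes that handle drugs, carnitine and bile salts, had 10 fitted ratios above 0 and 7 below, with a median of 0.023, and Slc22a16 was the one with an unadjusted p under 0.05. The vitamin transporters, 9 genes for folate, thiamine, ascorbate and riboflavin, had 4 above and 5 below and spanned the widest range, down to -2.55 for Slc23a4, whose lowest value was -8.54 on the array of mutant 3. The fatty acid, acetyl-CoA and choline transporters had 7 of 9 genes above 0, with a median of 0.077. The 6 nucleoside and nucleobase transporters had 5 above 0, with a median of 0.087, and the highest, Slc29a3, measured 5.52 for mutant 5 against values from -0.57 to 0.75 on the others. None of these medians was tested.

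The organic anion transporters of the Slco family, a separate family by name, had 7 tested genes, 5 above 0 and 2 below, with a median of 0.19 and 0 at an unadjusted p under 0.05 in limma. Of 12 tested genes of partner proteins and regulators of carriers, 7 lay above 0 and 5 below. Hamp, the iron hormone hepcidin, was the one with an unadjusted p under 0.05, with values of 1.63, -0.029, -3.37 and -3.49 on 4 arrays that split by dye and a fitted ratio of -1.36 ± 0.35 (SE, adjusted p = 0.901 in limma). Markers of other cells had list means smaller in size than their SD over 6 arrays. The means were -0.11 ± 0.23 for meninges, with 3 of 9 genes above 0, and -0.10 ± 0.26 for choroid plexus, with 1 of 6. They were 0.051 ± 0.23 for macrophages, with 4 of 8, and -0.025 ± 0.062 for cortical progenitors and neurons, with 6 of 13 (SD).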
